A study of Drosophila melanogaster with 3 samples.

Results

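The peaks described here are those whose summit lay just downstream of an annotated start site, where all nearby protein-coding starts were on the same strand. They come from chromatin immunoprecipitation with sequencing (ChIP-seq), in which DNA bound by a protein is pulled down with an antibody and sequenced. The members were chosen by position alone: in the list of peaks that passed the irreproducible discovery rate (IDR) threshold across replicates, the summit had to lie at 0 to 500 bp downstream of the nearest protein-coding start site, with every protein-coding start site within 500 bp on the same strand. In that list 468 peaks met this rule and 6624 did not, so the members were 6.60% of all IDR peaks (95% exact binomial interval 6.03% to 7.20%, covering counting error over peaks only). Any annotated transcript start counted, so the start of a member need not be the 5′ end of its gene. Of the 468 members, 333 belonged to genes with more than a single annotated start, and 337 had a single start within 500 bp. Use of these starts in the embryos was not measured.

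The samples were whole Drosophila melanogaster embryos aged 10 to 24 h from a stable transgenic line that carries PHDP with GFP fused to its C terminus. The GFP tag was pulled down with an anti-GFP antibody, and the labels give 3 biological replicates of this single group, with no sex recorded. The driver of the transgene and the embryonic cells that make the fusion are not stated in the labels, so the tagged protein and not native PHDP was measured. No untagged embryos were analysed here, and depth is unknown from these files.

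PHDP is a paired-like homeodomain protein, a class of transcription factor whose homeodomain recognises sequences built on a TAAT core. Paired-class homeodomains can also bind as dimers to palindromes of TAAT and ATTA with a short spacer. Fly core promoters carry their own words around the start site: an initiator, sometimes a TATA box, and at ribosomal protein genes often a polypyrimidine initiator in place of the usual one. The DNA replication-related element (DRE, bound by DREF) and Motif 1 (bound by M1BP) are common near the starts of housekeeping genes. Sequence just inside a gene is mostly 5′ untranslated exon, followed by coding exon or first intron.

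The sequences below are shown because the downstream summits divide by what lies under them, as the values further on describe. They were read from the RefSeq genome of D. melanogaster Release 6, the assembly that dm6 names, and are written 5′ to 3′ in the direction of transcription of the gene. The first set holds intronic summits of high signal, with 80 bases around each, in which capitals mark TAATTA. The Cftr window spans chr3R:24543187-24543266 on the minus strand and the CG31612 window chr2L:21794909-21794988 on the minus strand.
Cftr: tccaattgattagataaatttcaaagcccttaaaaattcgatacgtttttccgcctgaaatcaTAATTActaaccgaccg
CG31612: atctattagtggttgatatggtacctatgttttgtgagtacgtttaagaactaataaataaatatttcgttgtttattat
scramb2: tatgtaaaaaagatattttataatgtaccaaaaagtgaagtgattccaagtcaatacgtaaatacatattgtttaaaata

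The second set holds paired-type palindromes in introns under downstream summits. Capitals mark P3, which is TAAT and ATTA with 3 bases between them, in dbo (chr3L:15827245-15827304, plus strand) and Rsod (chr3R:30170746-30170805, minus strand). In Hr78 (chr3L:21497071-21497130, minus strand) and dmrt11E (chrX:13368307-13368366, plus strand) they mark P2, with 2 bases between.
dbo: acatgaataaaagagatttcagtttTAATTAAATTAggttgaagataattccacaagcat
Rsod: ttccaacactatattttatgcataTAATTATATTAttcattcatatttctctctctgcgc
Hr78: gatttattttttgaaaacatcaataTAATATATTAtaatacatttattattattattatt
dmrt11E: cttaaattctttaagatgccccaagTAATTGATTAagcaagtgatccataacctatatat

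The third set shows words near the start sites of ribosomal protein genes, 30 bases each, since the downstream summits of these genes lay close to the start. Capitals mark the polypyrimidine word at the starts of RpS4, RpL9 and RpL8, Motif 1 at RpL27A, and DRE upstream of the start of RpS7. The starts of RpL27A and of RpL30, the strongest ribosomal protein member, did not hold the polypyrimidine word.
RpS4: accgcccgcaaatctgcCTTTTccttttcc
RpL9: ccacattaaatttcccttCTTTTcttttcc
RpL8: ggatgtcttcctCTTTTcttttcttttcgc
RpL27A: cgccgccgggcGGTCACACtgctacaaccg
RpS7: tcctgcaactgTATCGATAgtatcgcacaa

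The last set shows CA repeats, which were more frequent at downstream than at upstream summits. Capitals mark runs of CA or its complement TG under the summits of the Integrator subunit gene IntS6, of Stat92E, which encodes the transcription factor of the JAK/STAT pathway, and of Nost and CG11151, which had runs among the longest of the members.
IntS6: TGTGTGcgaaTGTGTGTGTGcatgtccatg
Stat92E: accagccagccGTGTGTGTttacacagtgt
Nost: tgtgtaTGTGTGTGTGTGTGTGTGagtgcg
CG11151: acacgcacCACACACACACACACtcccaac

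Downstream summits were fewer than upstream summits at the same kind of promoter. The IDR list held 1606 summits at 1 to 500 bp upstream of a single-strand start, 893 at divergent promoters with starts of both strands within 500 bp, and 4125 farther than 500 bp from any protein-coding start. Among the strongest 5000 peaks of replicates 1, 2 and 3, 5.06%, 6.16% and 6.34% were downstream, and the corresponding upstream shares were 22.9%, 23.5% and 23.2%. The groups did not overlap: the difference was −17.3 ± 0.470 percentage points (SD, n = 3), below 0 in 3 of 3 replicates. A two-sided exact sign-flip test gave p = 0.25, which is the smallest p that 3 replicates allow in this and every test over replicates below.

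The contrast between the sides remained when the summits were set against the sequence each class covers. Bases that meet the downstream rule made up 5.59% of the main arms and held 62.6 IDR summits per Mb. Bases that meet the upstream rule made up 4.62% and held 259.8 per Mb, divergent promoters held 533 per Mb, and the rest of the arms 34.8 per Mb. Downstream sequence thus held summits at a density between that of upstream sequence and that of sequence away from starts, and its share of peaks was close to its share of bases.

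The downstream summits crowded toward the start site. In 50-bp steps from the start, the IDR list held 153, 102, 61, 30, 16 and 12 summits up to 300 bp, then 19, 22, 24 and 29 up to 500 bp. The median distance was 88 bp in the IDR list and 95.5 ± 14.7 bp over the replicates (112, 90.5 and 84 bp). Upstream summits instead were most frequent at 100 to 149 bp, with 256, and their median position was −188 ± 12.4 bp. Of the 468 members, 346 lay under 200 bp from the start, called near below, and 122 at 200 bp or more, called far. This division was made after the distances were seen. At the edges of the rule, 44 summits lay at 0 to 10 bp and 41 at 1 to 10 bp upstream, with median signals of 251 and 219.6. Another 9 lay at 490 to 500 bp and 3 at 501 to 510 bp, with median signals of 529 and 254.

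**Figure D1:**
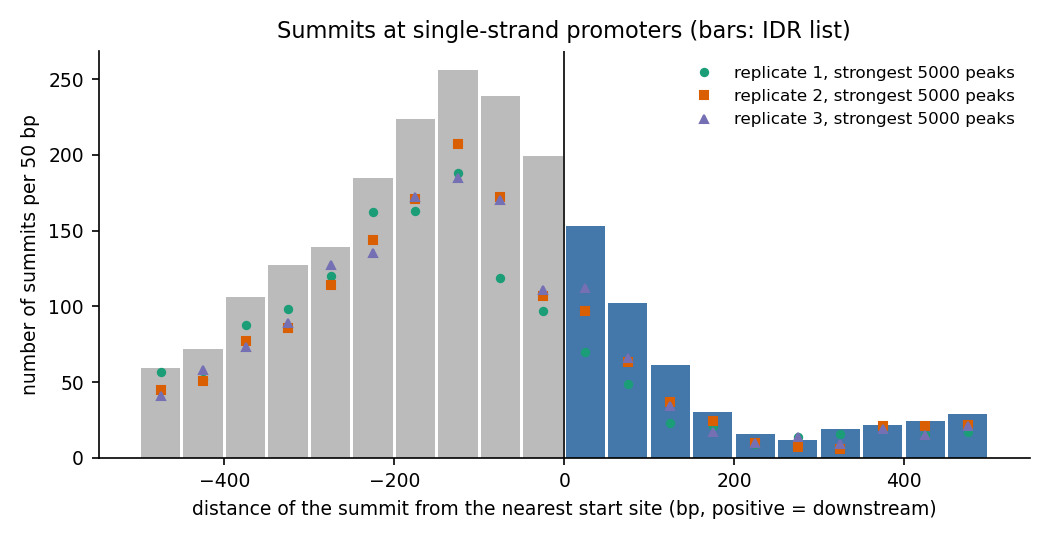
Number of summits per 50 bp (vertical axis) against distance from the nearest protein-coding start site in bp (horizontal axis, positive values downstream), at promoters with starts of one strand. Grey and blue bars give the upstream and downstream summits of the IDR list and points give the strongest 5000 peaks of each replicate; the downstream bars fall from 153 in the first step to 12 at 250 to 299 bp.

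Most members were found in every replicate, but the side of the closest ones was not stable. A replicate summit within 100 bp was present in all 3 replicates for 412 of the 468 members (88.0%), against 87.2% of upstream and 87.9% of divergent summits. The median shift between the IDR and the replicate summit was 11, 19 and 17 bp. Of the 412, 337 (81.8%) were downstream of the start in all 3 replicates. Among those at 0 to 50 bp in the IDR list, 69 of 138 were downstream in all 3, and among those beyond 50 bp, 268 of 274 were. The peak interval reached back over the start site for 296 near members and for 0 far members.

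The strongest member was PNPase, which encodes a polynucleotide phosphorylase, an RNA-degrading exoribonuclease. Its peak (chr3R:31404458-31404866) lay in a 5′ UTR exon, and its summit was at +80 bp in the IDR list and at +90, +80 and +72 bp in replicates 1, 2 and 3. The authors' signal value, used here to rank peaks within a list, was 1469, 1852 and 1307 in the replicates, where the peak ranked 15, 11 and 12 of 30000. It stood far above most of the members: 3 were among the strongest 100 IDR peaks, and the median member had a signal of 255 where PNPase had 4600.5.

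The second was ph-p, which encodes Polyhomeotic, a subunit of Polycomb repressive complex 1. Its summit lay far from the start, at +441 bp in a 5′ UTR exon (chrX:2137655-2138153), and stayed at +441, +456 and +455 bp in the replicates. The replicate signals were 1058, 1157 and 973, with ranks of 41, 50 and 33. The tandem copy ph-d also had a downstream summit, at +126 bp with an IDR signal of 314, and how reads were divided between the near-identical genes is not given in the sources used here.

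GstE13, a glutathione S-transferase gene, followed with a summit at +65 bp in a 5′ UTR exon and replicate signals of 869.9, 1113 and 650.2. The strongest intronic summit was that of CG31612, at +498 bp in the IDR list and at +501, +503 and +502 bp in the replicates, with signals of 797, 762 and 596. Its position was steady, but it lay just past the limit of 500 bp in each replicate. TRAM, whose product is a membrane protein of endoplasmic reticulum protein translocation, had its summit at +92 bp with signals of 608, 696 and 519.

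The other members of the strongest 10 were CG9399 at +57 bp, Cftr at +198 bp, the ecdysone-induced nuclear receptor gene Eip75B at +38 bp, the phospholipid scramblase gene scramb2 at +393 bp and rudhira at +255 bp. Cftr, scramb2 and rudhira had intronic summits, and their signals in replicates 1, 2 and 3 were 556, 609.7 and 421 for Cftr, 505, 532 and 393 for scramb2, and 462, 573 and 397 for rudhira. All 10 ranked between 11 and 326 in the 3 replicates. Of these 10 summit windows, 2 held TAATTA, those of PNPase and Cftr, and 0 held P3 or P2.

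**Figure D2:**
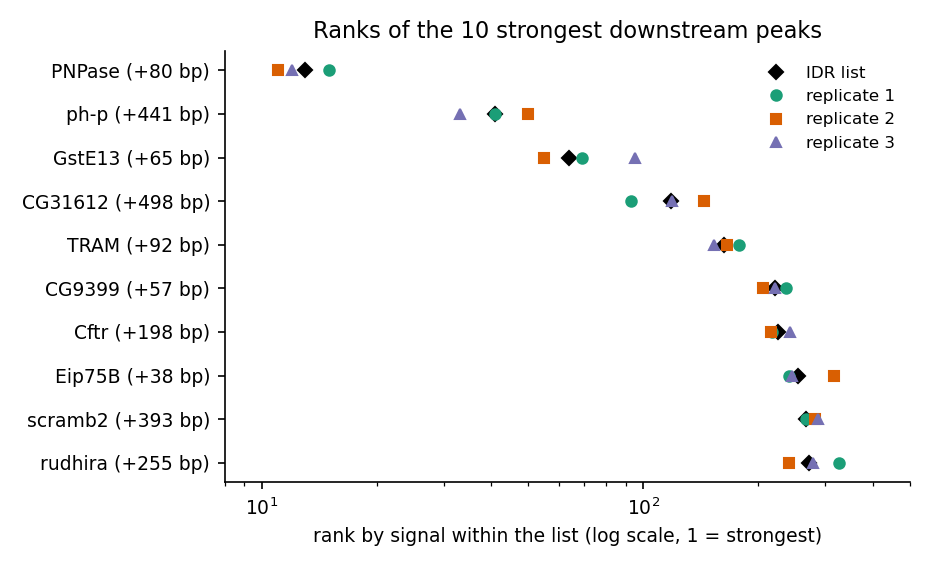
Rank by signal within each list (horizontal axis, log scale, 1 is the strongest) for the 10 downstream peaks of highest IDR signal (vertical axis, gene of the nearest start and summit distance). Diamonds give the rank in the IDR list and other symbols the rank among the 30000 peaks of each replicate; PNPase ranked between 11 and 15 throughout.

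Signal was lower at downstream than at upstream summits. The median signal was 122, 128 and 97.5 downstream in replicates 1, 2 and 3 and 159, 161 and 120.6 upstream. Each replicate showed the same direction, and the difference of medians was −0.34 ± 0.042 on the log2 scale (SD, n = 3; exact sign-flip p = 0.25). Against divergent promoters, whose medians were 163, 170.2 and 127, the difference was −0.41 ± 0.021 on the log2 scale (exact sign-flip p = 0.25). Of the strongest 1000 peaks, 41 in the IDR list were downstream and 317 upstream, and in the replicates the downstream share was 4.10% ± 0.361, against 31.8% ± 0.850 upstream. Far summits had the higher signal within the members, by 0.26 ± 0.12 on the log2 scale in 3 of 3 replicates (exact sign-flip p = 0.25), and 17 of the 122 far and 24 of the 346 near summits were among the strongest 1000.

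The annotation changed with distance. In the IDR list 339 summits (72.4%) lay in a 5′ UTR exon, 119 (25.4%) in an intron and 10 (2.14%) in a coding exon, and over the replicates these shares were 68.6% ± 2.58, 29.8% ± 2.30 and 1.51% ± 0.505. The median distance in the IDR list was 55 bp for 5′ UTR summits, 133 bp for the 10 coding exon summits and 338 bp for intronic summits. In replicates 1, 2 and 3 the coding exon median was 353, 408 and 146 bp, against 334, 358 and 310 bp for introns, so the order of these 2 was not steady. Of the near summits 308 (89.02%) were in a 5′ UTR exon and 32 in an intron, and of the far summits 31 were in a 5′ UTR exon and 87 (71.3%) in an intron. The annotation at these distances from all starts is not given here, so the part of gene structure in this change was not tested. Where transcripts of a gene differ at the summit, an exon was preferred: when an intron was preferred instead, 49.4% of the members were in a 5′ UTR exon and 48.9% in an intron. The strongest coding exon summits were those of CG44812, CG3919 and CG15531, with IDR signals of 400.4, 317 and 289.5, and CG3919 had no summit within 100 bp in replicate 3.

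Near summits lay in GC-richer sequence than far summits. The mean GC content of the window of 100 bp on either side was 42.0% ± 1.08 for near and 35.4% ± 0.569 for far summits, a difference of −6.65 ± 1.61 percentage points (exact sign-flip p = 0.25). All downstream windows together had 39.1%, 40.2% and 40.8% GC in the replicates, and upstream windows 33.75%, 35.02% and 34.9%. The excess over upstream windows was 5.46 ± 0.355 points, and between summits at 51 to 200 bp from the start on both sides it was 5.89 ± 0.747 points (exact sign-flip p = 0.25 each). For scale, windows at the median distance of +88 bp from all 19253 protein-coding starts had 44.1% GC, and windows mirrored to the upstream side of the members' own starts had 40.4%. At 300 to 324 bp downstream of all starts the GC content was 47.0%, above the 35.6% of far summit windows in the IDR list.

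Some of the words under the summits also divided by distance. DRE, TATCGATA, lay in 5.77% ± 1.92 of near and 1.13% ± 0.0195 of far windows, and Motif 1, GGTCACAC, in 7.15% ± 3.01 and 0.370% ± 0.642. In the IDR members that held them, the median position was −38 bp from the start for DRE and −1 bp for Motif 1. No far window reached the nearest start. Far windows thus could not hold DRE or Motif 1 at these median positions, and a further difference between near and far summits was not tested. The homeodomain palindrome TAATTA had the opposite order, with 9.85% ± 0.508 of near and 19.6% ± 2.05 of far windows, a difference of 9.80 ± 2.50 points that was above 0 in 3 of 3 replicates. P3 lay in 0.350% ± 0.316 of near and 4.16% ± 0.715 of far windows. In the IDR list TAATTA lay in 18.9% of far windows and in 18.9% at peaks farther than 500 bp from any protein-coding start. For P3 these shares were 4.10% and 2.96%. Of the 6 members with P3 in the IDR list, Ada2b, dbo, Rsod, CG3919 and CG14502 had far summits and Den1 had its summit at +6 bp; Ada2b encodes a subunit of histone acetyltransferase complexes.

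Some words of other factor classes also differed between near and far summits. AGATAA, the GATA factor word, lay in 11.3% ± 0.931 of near and 21.5% ± 2.61 of far windows, and TGTTTAC, the forkhead word, in 7.37% ± 1.12 and 11.7% ± 0.822. The E-box CAGCTG was more frequent near the start, in 13.8% ± 1.38 of near against 7.53% ± 1.17 of far windows. Each of these differences had 1 sign in all 3 replicates (exact sign-flip p = 0.25). Other words did not divide: the far minus near difference changed sign between replicates for GAGA, AP-1, Runt and the CA repeat. It was −1.13 ± 4.57, 1.20 ± 1.94, −0.879 ± 1.50 and 2.58 ± 3.03 points for these words in turn. In the IDR list the GATA word lay in 19.7% of far windows and in 18.8% at peaks farther than 500 bp from any protein-coding start. For the forkhead word these shares were 13.1% and 8.22%. Zelda's CAGGTAG, held by only 6 members in the IDR list, lay in 0.915% ± 0.920 of near and 3.03% ± 0.697 of far windows. The far windows were AT-richer, and the part of base composition in each difference was not tested.

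**Figure D3:**
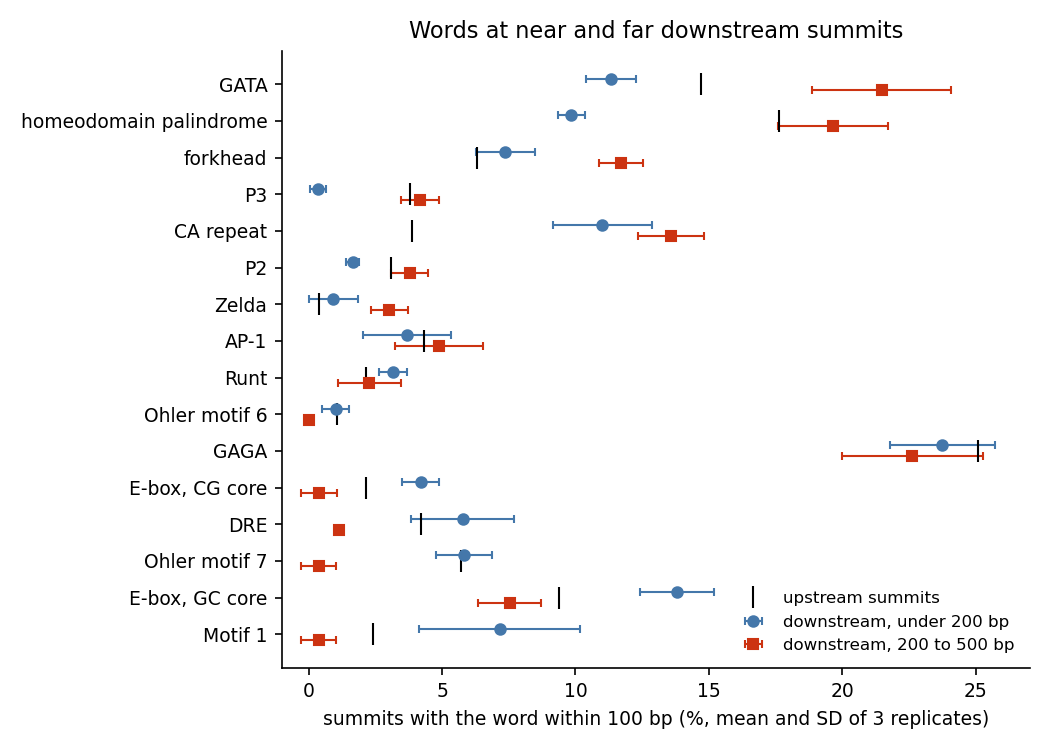
Percent of summit windows (100 bp either side) that hold each of 16 words (horizontal axis; mean, with bars for the SD of 3 replicates). Blue circles are downstream summits under 200 bp from the start, red squares those at 200 to 500 bp and black ticks all upstream summits; the homeodomain palindrome is TAATTA, at 9.85% of near and 19.6% of far windows.

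Compared with upstream summits, downstream summits as a whole held fewer homeodomain words. TAATTA lay in 13.04%, 12.99% and 12.3% of downstream windows in replicates 1, 2 and 3 and in 17.6%, 17.7% and 17.6% of upstream windows, so the groups did not overlap. The difference was −4.84 ± 0.383 points for TAATTA, while P3 differed by −2.31 ± 0.235 points and P2 by −0.79 ± 0.217 points, each below 0 in 3 of 3 replicates. Against other sequence at starts the order was different. In the IDR list TAATTA lay in 13.7% of downstream windows, in 8.42% of windows at +88 bp from all protein-coding starts and in 10.04% of windows mirrored to the upstream side. P3 lay in 1.28%, 0.976% and 0.641% of these windows, and P2 in 2.14%, 0.873% and 2.56%, so P2 was no more frequent than in the mirrored windows. The other peaks of the IDR list held these words more often than the members. TAATTA lay in 24.4% of windows at divergent promoters and 18.9% farther than 500 bp from any protein-coding start. For P3 these shares were 4.70% and 2.96%, and for P2 3.70% and 2.38%. For the 16 words, 12 kept 1 sign in the replicates and the IDR list, 7 of them higher and 5 lower downstream. For each of the 12 the exact sign-flip p was 0.25, or 0.333 after Benjamini-Hochberg adjustment over the 16 words, so that no word could pass at this number of replicates. Each word was searched on both strands, and words can overlap: P3 and P2 both can contain TAATTA.

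Among the 16 words, the difference between the sides was largest for CA repeats, CACACAC. They lay in 11.5%, 11.04% and 12.9% of downstream windows and in 3.23%, 4.34% and 4.05% of upstream windows, which do not overlap, a difference of 7.94 ± 1.12 points. In the IDR list 57 members (12.2%) held one, against 7.58% of windows at +88 bp from all protein-coding starts and 6.84% of windows mirrored to the upstream side. The IDR share was highest at 100 to 199 bp from the start, where 21 of 91 IDR summits (23.1%) had a CA repeat and 15.9%, 16.4% and 17.6% did in the replicates. Upstream summits at the same distance had 3.75%. All starts had 8.67% at +149 bp and 6.35% at the same distance upstream, so the upstream summits were below their own background. Farther downstream the share also stood above the upstream summits, with 14.9% against 3.55% at 200 to 349 bp and 12% against 1.69% at 350 to 500 bp, where all starts had 9.31% and 7.32%. On the upstream side all starts had 5.65% and 5.39% there, again above the upstream summits. The class of highest share differed between replicates, and in replicate 1 it was 200 to 349 bp, with 23.1%. Under 50 bp the IDR share was 7.19% downstream and 8.54% upstream.

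The 57 summits with a CA repeat were not the strong ones. Their median IDR signal was 223 against 256 for the other members, and 82.5% had a summit in all 3 replicates against 88.8%. The strongest were Nacalpha, a subunit of the nascent polypeptide-associated complex, with 766 at 0 bp, IntS6 with 629.9 at +354 bp and Stat92E with 585 at +341 bp. Their longest runs of alternating C and A, or G and T, were 8, 10 and 8 bases, and the longest of any member was 18 bases. How reads from such repeats were mapped is not given in the sources used here, and its part in these counts was not tested.

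**Figure D4:**
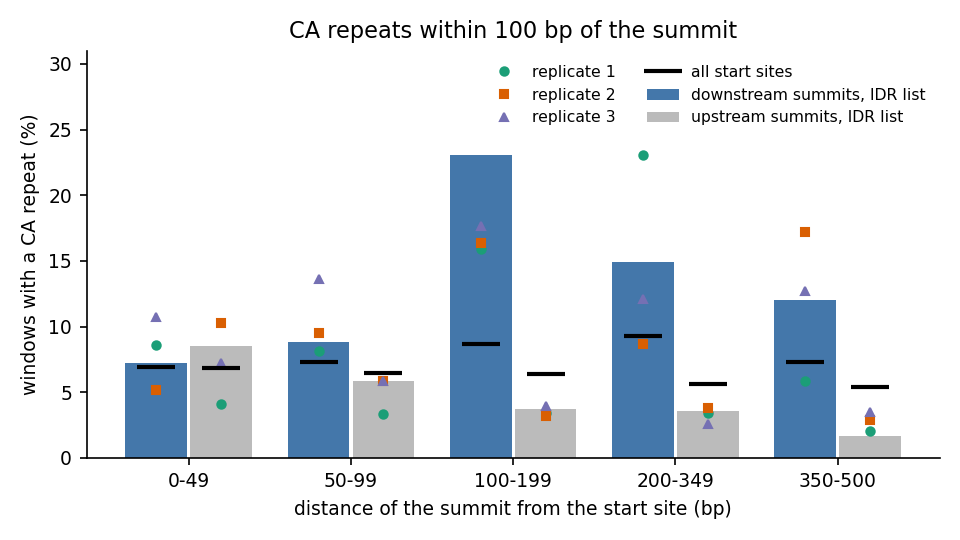
Percent of windows with a CA repeat within 100 bp of the summit (vertical axis) by distance from the start site in bp (horizontal axis). Blue and grey bars are downstream and upstream summits of the IDR list, points are the strongest 5000 peaks of each replicate and black dashes are windows at the middle of each distance class from all protein-coding starts; at 100 to 199 bp the bars stand at 23.1% and 3.75%.

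Other words differed less between the sides. DRE lay in 5.77% of downstream and 5.11% of upstream IDR windows, with a difference of 0.0764 ± 1.70 points over the replicates that was above 0 in replicate 1 and below 0 in replicates 2 and 3. Motif 1 was higher downstream by 2.78 ± 1.98 points, though by 0.49 in replicate 1 against 4.02 and 3.81 in replicates 2 and 3. The word itself need not be downstream of the start: of the 27 members with DRE, 22 had it upstream, with a median position of −38 bp. By contrast, TAATTA lay downstream of the start in 62 of 64 members and the CA repeat in 55 of 57. The forkhead word was higher downstream by 2.39 ± 1.13 points and lay in 9.19% of downstream and 6.10% of upstream IDR windows. Zelda's CAGGTAG was held by 6 members, CG31729 and CHES-1-like among them, and the difference was 1.14 ± 0.428 points.

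The genes with a downstream summit had a higher median length than all protein-coding genes, though short genes were among them. Of 13945 protein-coding genes, 464 (3.33%) had a downstream IDR summit and 1489 (10.7%) an upstream one, and 96 had both. The median gene length was 5835.5 bp for the former, 5495 bp for the latter and 2166 bp for all genes. Of 16 gene lists, 3 stood well above 3.33%. Of 92 cytoplasmic ribosomal protein genes 29 (31.5%) had a downstream summit, of 62 genes of signalling pathways 16 (25.8%), and of 35 Polycomb and trithorax genes 8 (22.9%). In the strongest 5000 peaks of replicates 1, 2 and 3 these shares were 20.7%, 35.9% and 28.3% for ribosomal proteins, 12.9%, 12.9% and 17.7% for signalling, and 11.4%, 11.4% and 17.1% for Polycomb and trithorax genes, where all genes had 1.80%, 2.18% and 2.25%. The same lists were also above all genes at upstream summits of the IDR list, with 27.2% of ribosomal protein, 25.8% of signalling and 17.1% of Polycomb and trithorax genes against 10.7%. The median length of all genes in these lists, with or without a summit, was 1325.5, 12867.5 and 7137 bp. Their genes had a mean of 1.71, 1.98 and 1.74 annotated starts, against 1.41 for all protein-coding genes. Among the 16 lists this mean reached 2.66, for muscle genes. The part of the number of starts in these shares was not tested.

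The signalling genes covered several pathways, at lower signal than the strongest members. Mer, a Hippo pathway regulator, had the highest IDR signal, 833, with an intronic summit at +99 bp and replicate signals of 242, 316 and 247. Stat92E followed at +341 bp with 165, 206 and 209.6, and arr, the Wingless co-receptor, with 96.3, 183 and 101 and a summit that moved from −13 to +116 bp between replicates. The others were Apc, fz and fz2 of Wingless signalling, hpo, wts and sd of the Hippo pathway, the Dpp receptor gene tkv, mam of the Notch pathway, vn of Egfr signalling, ken, puc, kay and Jra. For 10 of the 16 the summit was downstream of the start in every replicate. Among the Polycomb and trithorax genes were ph-p and ph-d, Trl, which encodes GAGA factor, with replicate signals of 243, 268 and 152 at +140 bp, and lolal with 150.7, 207 and 97.5 at +67 bp. Scm, skd, trx and jing had IDR signals of 219, 199.7, 183 and 177, and 5 of the 8 were downstream in every replicate.

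The remaining lists were near or below the share of all genes. Oxidative phosphorylation had 4 of 89, among them ATPsynC, the gene of an ATP synthase subunit, translation factors 3 of 55, vacuolar ATPase 2 of 33, splicing 1 of 38 (B52) and neuronal genes 1 of 57 (Syx1A). ATPsynC and the elongation factor gene eEF1alpha1 ranked low in replicate 1, at 15416 and 16972 of 30000 there, against 2160 and 4060 in replicate 2 and 3840 and 3475 in replicate 3. The other 8 lists, with 551 genes in all, had 0 in the IDR list: mitochondrial ribosomal proteins, tRNA synthetases, proteasome, TAF and Mediator subunits, Hox and paired-like genes, muscle genes, RR cuticle proteins and chemosensory receptors. Lists were read by gene symbol, and skd, a Mediator subunit gene with a downstream summit, was counted with the Polycomb and trithorax genes instead. In the strongest 5000 peaks of replicate 2, Hox and paired-like genes and TAF and Mediator genes had 2.78% and 2.00%. For the 75 mitochondrial ribosomal protein genes the exact interval reached 4.7995%, which lies above the share of all genes.

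**Figure D5:**
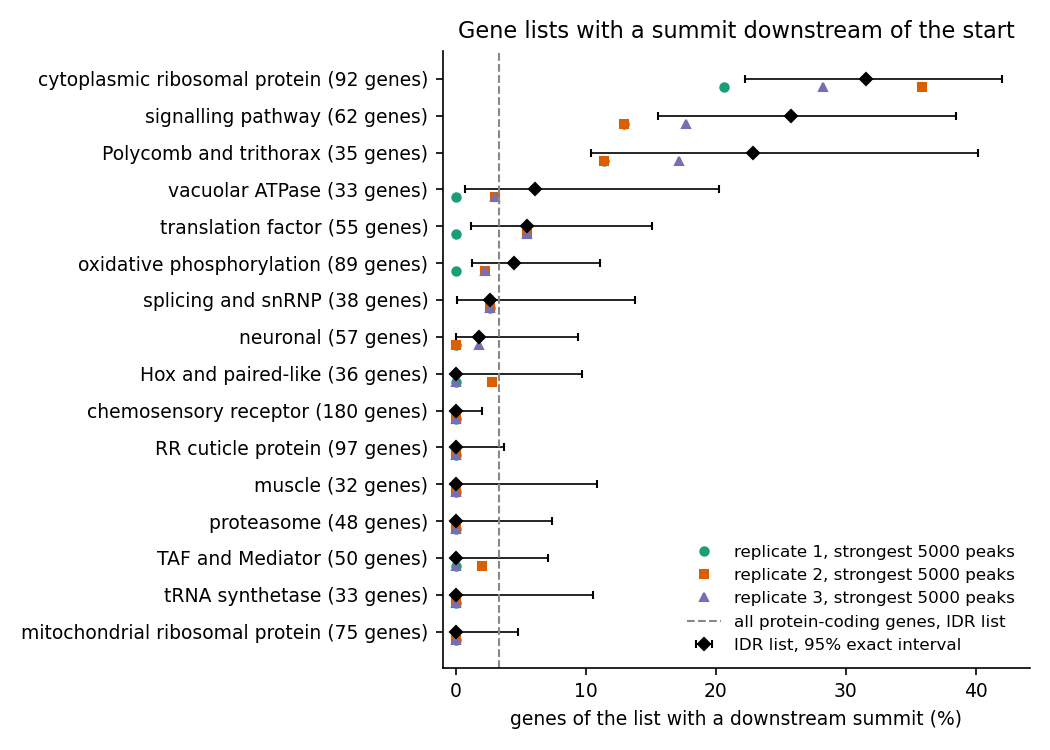
Percent of the genes of each list with a downstream summit (horizontal axis). Diamonds with 95% exact binomial intervals are the IDR list, coloured points the strongest 5000 peaks of each replicate, and the dashed line is the 3.33% of all protein-coding genes in the IDR list; ribosomal protein, signalling and Polycomb and trithorax genes lie to its right in all 3 replicates.

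Ribosomal protein genes had their summits closer to the start than other genes, on either side of it. Signal at these starts in embryos without the tagged protein was not analysed here, and its part in these summits was not tested. Among their 54 single-strand summits in the IDR list, 53.7% were downstream, against 21.7% of 2020 at other genes, and in replicates 1, 2 and 3 the shares were 42.2%, 70.2% and 56.5% against 17.3%, 19.2% and 20.3%. The difference was 37.4 ± 13.1 points, above 0 in 3 of 3 replicates (exact sign-flip p = 0.25). The median signed distance was 1.83 ± 9.78 bp at ribosomal protein genes and −151.5 ± 14.1 bp at other genes. The 29 downstream summits lay at 0 to 121 bp with a median of 22 bp, 20 of them within 50 bp, and 18 were downstream in every replicate. The 25 upstream summits at ribosomal protein genes had a median of −30 bp, with 14 within 50 bp of the start and the farthest at −457 bp. The division into sides at these genes thus rested on distances close to the shift between replicates.

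These summits were stronger than those of the other members, with a median IDR signal of 392 against 249. RpL30 had replicate signals of 309, 410.4 and 289 with summits at +41, +1 and +34 bp, and RpS4 had 360.02, 372 and 241 at 0, +26 and +5 bp. RpL9 followed with 203, 265 and 176 at +78, +36 and +36 bp. All 3 were downstream in every replicate, whereas the summit of RpL27A was at −5, +8 and +2 bp. The members' ribosomal genes spanned both subunits, with IDR signals from 197 for RpL26 to 993 for RpL30.

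Many of the start sites of these genes, though not all, carried the word their class is known for. A polypyrimidine word, CTTTT or CTTTC beginning within 5 bases of the start, was present at 16 of the 29 ribosomal protein members (55.2%) and at 13 of the other 439 members (2.96%). It was present at 9 of the 25 starts with an upstream ribosomal summit (36.0%), and at 62 of all 157 annotated ribosomal protein starts (39.5%) against 3.47% of other starts. The word was thus frequent at starts of the gene class whether or not a downstream summit was present. The initiator TCAGT was at 0 of the 29 and at 69 of the others. Over all members' starts the polypyrimidine word was more frequent downstream than upstream by 2.82 ± 0.702 points, in 3 of 3 replicates (exact sign-flip p = 0.25), with 6.21% against 4.62% in the IDR list and 3.76% of all starts. The initiator was at 14.8% of downstream, 15.3% of upstream and 10.97% of all starts, and TATAAA at 20 to 40 bases before the start at 4.07%, 3.98% and 6.87%.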

How the data were processed

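Per the labels and the files' accompanying notes, each replicate list holds 30000 peaks that the authors called on dm6 from that replicate and 1 shared control, and the IDR list combines the 3 replicate lists with the pooled one. Sonicated fragments spanned 200 to 800, per the labels, which name no unit. For read alignment and peak calling, the tool is not given in the sources used here. Each peak's signal value is the authors' own, as deposited, and was compared within a list only. Replicate values rest on the strongest 5000 peaks of each list, because all lists have the same length.

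Summits on the main arms (2L to 3R, 4, X) were placed against all protein-coding transcript starts of the Ensembl annotation (release 115, BDGP6, the assembly of dm6). Coordinates are 1-based, and 2 members equally far from starts on either side were counted as downstream. An IDR and a replicate summit matched within 100 bp. Sequence came from RefSeq Release 6, with windows of 100 bp either side. Errors are SDs over 3 replicates. Tests are two-sided exact sign-flip tests, and binomial intervals are exact (95%). Where nothing but the labels separates the replicates, p-values measure only the spread between these samples.

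Genes are named by rule: the 10 strongest members, the 3 strongest per annotation class, the 2 strongest with each word of 1 sign throughout, and the 3 strongest of each list with 3 or more; further members of a list, of the sequences and of the P3 set were named after their values were seen. The members and lists were chosen with earlier results of these data known. The near and far division at 200 bp, the GC windows, the CA repeats by distance and the comparison of sides at ribosomal protein genes were chosen after seeing the data. Other limits, start sets, peak numbers, windows and left-out replicates were tried. Python 3.11.15, numpy 2.4.6, pandas 2.3.3 and scipy 1.17.1 were used, and the steps were tested on simulated data.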

Additional observations from a re-analysis of the deposited data

How the results depend on the processing

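The settings leave the directions between the sides in place. The difference in share, both signal differences, the GC differences, the far minus near difference in TAATTA and the side of ribosomal protein summits kept their sign under every alternative tried for them; their exact p stayed at the smallest value the number of replicates allows. The downstream share itself moved with the definition: 5.77%, 5.85% and 9.77% at limits of 200, 300 and 1000 bp, 5.68% with 1 start per gene, 4.77% in the upper part, from the median signal up, of the IDR list, and 5.44% to 5.97% when a replicate was left out of the matching. The replicate mean was 4.37% in the strongest 2500 and 7.23% in a number of peaks equal to that of the IDR list, and the median distance was 133 bp in the strongest 2500.

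Preferring introns gave 49.4% of summits in a 5′ UTR exon and 48.9% in an intron, and leaving out a replicate gave 66.9% to 70.4% and 27.3% to 31.25%. Signalling genes fell from 25.8% to 14.5% in the strongest 5000, to 8.06% in that upper part of the IDR list, where all genes had 1.20%, and to 14.5% to 21.0% without a replicate. Polycomb and trithorax genes had 13.3%, 11.4% and 14.3% to 17.1%. The share of all genes fell too, from 3.33% to a mean of 2.08% in the strongest 5000 and to 1.93% to 2.16% without a replicate.

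Of 128 word settings, 13 turned sign. DRE went from 0.0764 points to −1.05 with a 50-bp window, −5.30 at 51 to 200 bp, −0.26 in that larger number of peaks and −0.90 to 0.629 when a replicate was left out. Ohler motif 6 went to 0.0222 and GATA to 0.104 with a 150-bp window, GATA ranged from −0.87 to 0.312 when a replicate was left out, and GAGA went to 2.24 and Runt to −0.27 with a 50-bp window. AP-1 went to 0.161 and 0.479 with 50 and 150 bp, to 0.177 in that larger number of peaks, and ranged from −1.19 to 0.611 when a replicate was left out. All differences were taken within each replicate. No paired analysis was possible between groups because there is a single group. Depth is unknown, and counting intervals cover peaks only.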
